A study of Homo sapiens with 10 samples.

Results

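COV504 is an established human ovarian cancer cell line, and its transcriptome was set against that of 6 other ovarian cancer lines measured with the same long-read assay. The members were chosen by label and instrument, which gave 1 COV504 library out of 10 libraries in the study. The comparison used the 8 libraries run on the PromethION, a high-output nanopore sequencer: 1 each of COV504, OVMANA, OVKATE, OVTOKO, SK-OV-3 and COV362, and 2 of IGROV-1, whose mean stood for that line. The labels give no treatment, genotype or passage for any line, and nothing says that the 2 IGROV-1 libraries came from separate cultures. In nanopore sequencing a whole molecule can be read in 1 piece, so a read can often be assigned to a single transcript of a gene.

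As background, cell lines grown from ovarian tumours differ in the tumour type they came from and in what each lost or switched on afterwards. Epithelial lines usually keep keratins and adhesion proteins, while genes of the interferon response, the chemokines and the cancer-testis antigens are on in some lines and off in others. Chemerin, the secreted protein encoded by RARRES2, recruits immune cells through its receptor CMKLR1 and was first described as a retinoid-induced gene.

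Library totals ranged from 1729782 to 2552499 estimated counts, with 2247659 in COV504, and 13234 to 15588 genes had at least 1 count (14877 in COV504). Levels are counts per 1000000 counts of the library (CPM), a count of 0 in COV504 allows up to 1.33 CPM, and intervals cover counting error only. The mitochondrial ribosomal RNA genes took 1.58% to 3.31% of the counts in 6 lines and 9.13% and 10.9% in the IGROV-1 libraries. Count-weighted transcript length was 2526 bases in COV504 and 2322 to 2649 bases in the other libraries. Between the IGROV-1 libraries 0 of 6167 genes with 20 CPM differed 4-fold, and the 99th percentile of the ratio was 1.90.

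RARRES2 (ENSG00000106538) lies on the minus strand of chromosome 7 at 150338319 to 150341674 (GRCh38). It had 1161 CPM in COV504, 441 CPM in COV362, 161 CPM in OVKATE and 19.2 CPM in SK-OV-3, and it was listed at 0 in OVMANA, OVTOKO and both IGROV-1 libraries. COV504 was therefore the highest of the 7 lines, at 2.63 times COV362 (95% interval 2.45 to 2.83, exact binomial on the counts). The transcript ENST00000223271 made up 94.3% of the gene in COV504 (Wilson interval 93.4% to 95.2% of 2610 counts), 83.9% in COV362, 82.9% in OVKATE and 10.98% in SK-OV-3. The edgeR quasi-likelihood test, which judges COV504 against the spread among the 6 other lines, gave a log2 difference of 3.46 ± 2.65 (SE) and an adjusted p of 1. The adjusted p did not pass, with the other lines spread from 0 to 441 CPM. Its receptor gene CMKLR1 had 1 count in COV504 and was at 9.25 CPM in OVTOKO, and the other 2 receptor genes of the list, GPR1 and CCRL2, had 2 and 0 counts in COV504. In a bulk library a larger share of expressing cells and more RNA per cell cannot be told apart.

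Over all genes, the edgeR test with Benjamini-Hochberg adjustment called 0 of 12738 genes higher (0.0%) and 0 lower (0.0%) in COV504. At an unadjusted p under 0.05 it listed 353 genes (2.77%), of which 199 were higher and 154 lower. DESeq2 on the same 7 columns called 8 genes higher and 33 lower, and a fit with the spread of the 2 IGROV-1 libraries in place of the spread of lines called 2245 higher and 779 lower. The latter fit also set COV504 against the mean of the 6 lines on the log scale, not against their pooled level. The spread is therefore not its only difference from the main fit. The coefficient of variation was 82.7% over the lines and 10.7% between the IGROV-1 libraries. In simulated data the edgeR test recovered 0% of genes changed by a log2 of 2 (12117 genes in the step), 28% at 4 (12225 genes) and 49.5% at 6 (12153 genes). The genes below are therefore described by rank and fold, and as they were picked for their difference, any p given for one is a description.

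COV504 had 49 genes at least 4-fold above every other line, of 6152 genes with 20 CPM in it (0.796%), and 6 genes at least 4-fold below every other line, of 3569 with 20 CPM in all others (0.168%). The same counts were 19 and 3 in COV362, 37 and 45 in IGROV-1, 63 and 11 in SK-OV-3, 58 and 23 in OVTOKO, 83 and 11 in OVMANA, and 183 and 16 in OVKATE. COV504 was thus 3rd from the bottom in genes far above the rest and 2nd from the bottom in genes far below. COV362 was the nearest line for 20 of the 49, and without COV362 the 49 became 91. Of the 49, 19 stayed under 5 CPM in every other line and 4 had 5 CPM in all of them. The ratios of CPM + 1 ran down to 4.09 for GFRA1, and PHLPP1 at 3.98 was the next gene outside. On the lower side KAZN lay inside at 4.11 and GPRC5C outside at 3.39.

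**Figure D1:**
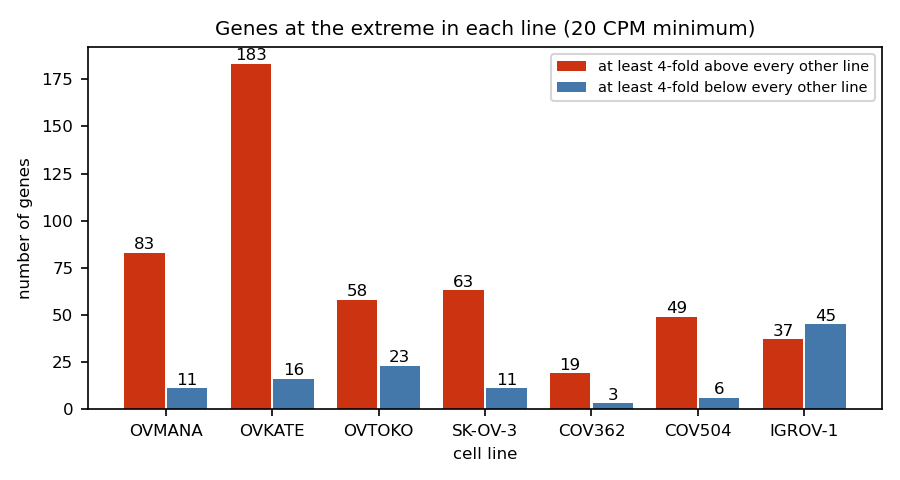
Number of genes at least 4-fold above (red) or below (blue) every other line, for each of the 7 lines, with 20 CPM as the minimum in the line or in all others. COV504 has 49 and 6, against 183 and 16 for OVKATE and 19 and 3 for COV362.

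The gene farthest above the other lines was MAGEA4, a cancer-testis antigen gene on chromosome X (151912889 to 151925170, plus strand), with 791 counts or 352 CPM in COV504 and 0 in the 7 other libraries. Against the floor of 3 counts per library it was at least 203-fold higher. The other cancer-testis genes did not share this level: 4 of 24 listed members passed the expression filter, MAGEA4 was highest in COV504, and 20 members had 0 counts in it. MAGEA2, MAGEA3, MAGEA6, MAGEA9, MAGEA10 and MAGEA12 were among these members at 0. Some MAGE genes are close copies, and how reads were divided between them was not tested.

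Among secreted proteins and their processing, SCG2, which encodes a granin of secretory granules, had 166 CPM in COV504 and at most 1.16 CPM elsewhere (144-fold above OVTOKO, interval 39.5 to 1190). PTN, the heparin-binding growth factor pleiotrophin, had 189 CPM against 7.09 CPM in SK-OV-3 and 6.66 CPM in COV362. Both were picked for lying above every other line. CXCL14, a chemokine, had 568 CPM in COV504 and 22.6 and 39.5 CPM in the IGROV-1 libraries, with at most 0.784 CPM elsewhere. CXCL6, a neutrophil-attracting chemokine, had 96.5 CPM against 0 to 4.27 CPM. ISLR and MAMDC2 encode extracellular proteins, and they had 29.8 and 40.5 CPM against at most 0.784 and 1.57 CPM. These genes were close to absent outside COV504 except for CXCL14 in IGROV-1.

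Among enzymes and membrane proteins, CEACAM6, a GPI-anchored adhesion molecule, had 880.5 CPM in COV504 and 10.7 CPM in OVMANA, and was listed at 0 in the 6 remaining libraries. CDO1, the cysteine dioxygenase that starts cysteine breakdown, had 214.0 CPM against at most 2.74 CPM (78.0-fold above COV362, interval 37.6 to 195). AOC1, the diamine oxidase that degrades histamine, had 117 CPM against at most 1.96 CPM. In each of the 3 genes a single line came nearest and the rest were at or near 0. VAMP5, a vesicle-associated membrane protein, had 82.3 CPM against 0 to 1.57 CPM. LVRN, an aminopeptidase of the placenta, and PDE1C, a calmodulin-dependent phosphodiesterase, had 40.5 and 31.1 CPM, each with 1 count in SK-OV-3, and LVRN with 1 more in an IGROV-1 library. STMN2, a neuronal microtubule regulator, had 30.3 CPM and 1 count in COV362, and the long noncoding RNA LINC01551 had 47.2 CPM against at most 1.96 CPM. DESeq2 called 7 of the 49 and gave no adjusted p for 23 of them, while the smallest edgeR adjusted p among the 49 was 0.249 (SCG2).

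**Figure D2:**
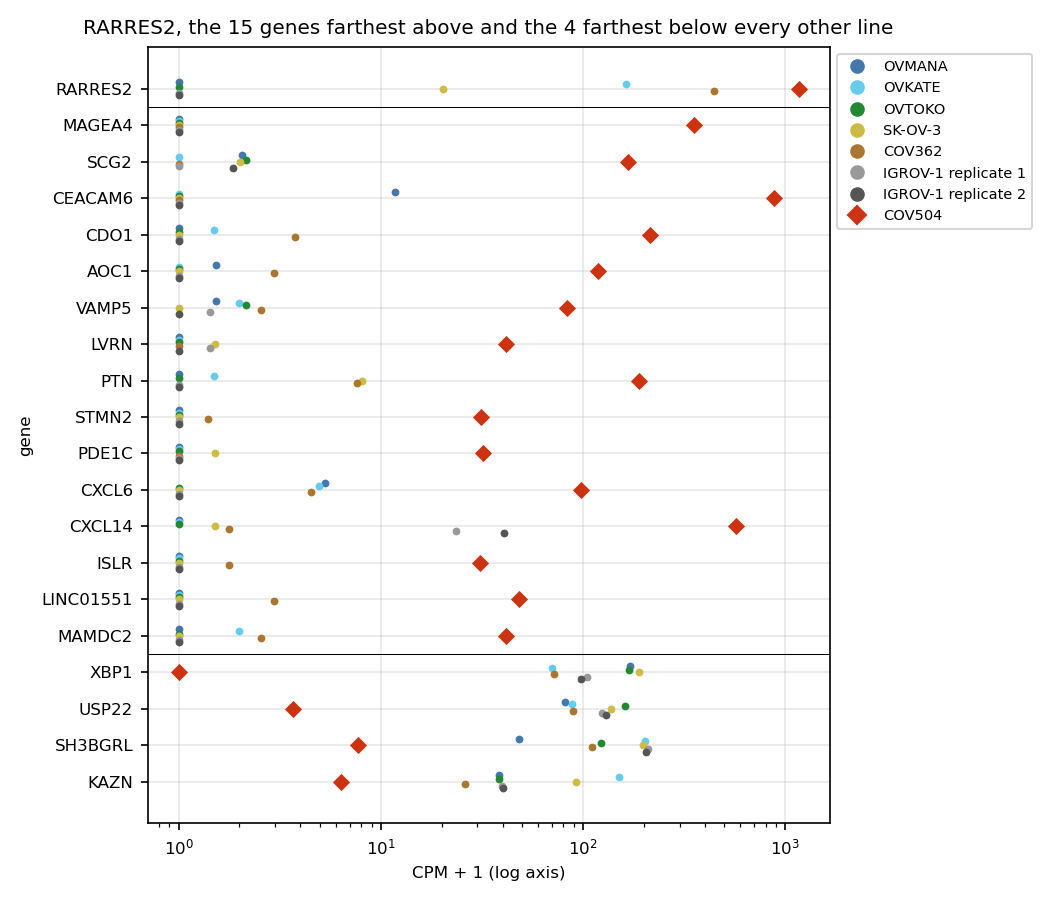
CPM + 1 on a log axis in the 8 PromethION libraries for RARRES2, the 15 genes farthest above and the 4 single genes farthest below every other line, with COV504 as red diamonds and each other library as a dot. By the rule that picked them, COV504 stands right of all dots in the 15 and left of all dots in the 4.

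Of the 6 genes far below the other lines, XBP1 stood farthest out. XBP1 encodes a transcription factor of the unfolded protein response, made active by IRE1 cleavage and then rejoining of its messenger RNA. The gene lies on chromosome 22 (28794555 to 28800597, minus strand). It had 0 counts in COV504, 69.2 CPM in OVKATE, 70.9 CPM in COV362, 103 and 96.6 CPM in the IGROV-1 libraries, 168 CPM in OVTOKO, 170.5 CPM in OVMANA and 188 CPM in SK-OV-3. Against the floor of 3 counts it was at least 51.9-fold lower than the nearest line. The neighbouring genes CCDC117 and ZNRF3 had 14.2 and 7.56 CPM in COV504, within the range of the other lines.

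Genes of endoplasmic reticulum chaperones, translocation and protein degradation were looked at after the XBP1 value was seen. Of 14 listed, 13 passed the filter, with a median log2 difference of -0.11 beside -0.19 over all genes tested. Among the 13, 2 were highest in COV504, PDIA4 and HSPA5 (15.4%, beside 11.8% over all genes), and 0 were lowest. HSPA5, the main chaperone of the endoplasmic reticulum, had 613 CPM in COV504 against 244 to 594 CPM in the other lines. DNAJB9, a co-chaperone, had 16.9 CPM against 16.1 to 39.4 CPM. None of the 13 passed the edgeR test at an unadjusted p under 0.05.

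USP22, the deubiquitinase subunit of the SAGA coactivator (chromosome 17, 20999593 to 21043760, minus strand), had 6 counts or 2.67 CPM in COV504 and 80.7 to 159.6 CPM in the other lines. It was 30.2-fold below OVMANA (interval 13.6 to 83.7). SH3BGRL, a small SH3-binding adaptor (chromosome X), had 6.67 CPM against 47.0 CPM in OVMANA and 109.7 to 208 CPM in the other libraries. KAZN, which encodes the cell junction protein kazrin (chromosome 1), had 5.34 CPM against 25.1 to 149.9 CPM. XBP1, USP22, SH3BGRL and KAZN were picked for lying at least 4-fold below every other line, so their lack of overlap follows from the rule. The edgeR log2 difference was -11.3 for XBP1, -5.41 for USP22, -4.44 for SH3BGRL and -3.49 for KAZN. The edgeR adjusted p was 0.265 for XBP1, 0.265 for USP22, 0.809 for SH3BGRL and 1 for KAZN. The remaining 2 of the 6 were identifiers that join several genes. One of them holds MTAP and CDKN2B-AS1 and is named here because its neighbours are in the lists: it had 3 counts in COV504 and 24.7 to 41.7 CPM in the other libraries. CDKN2A, the cell cycle inhibitor beside it on chromosome 9, had 0 counts in COV504 and OVTOKO and 0.506 CPM in SK-OV-3, against 62.4 to 434 CPM in the other libraries.

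A wider set was drawn after the values were seen: genes with at most 3 counts in COV504 and at least 5 CPM in every other line. There were 25 of 7179 (0.348%), 18 of them at 0, where the same rule gave 10 in COV362, 22 in SK-OV-3, 26 in OVKATE, 45 in OVTOKO, 65 in OVMANA and 82 in IGROV-1. Among the 25 were GSTM3, a glutathione transferase (3 counts, and 8.67 to 673 CPM elsewhere), CPNE8, a copine (0 counts, and 9.89 to 251 CPM elsewhere), and ZMAT3, a p53 target (2 counts, and 9.01 to 41.1 CPM elsewhere). MAP2K7, a kinase of the JNK pathway, was at 0 with 12.0 to 33.1 CPM elsewhere. By the rule for neighbouring runs among the 6 genes no 2 were adjacent. Looked at after the values were seen, the other joined identifier of the 6, ZNF544 with ZNF8 on chromosome 19 (11 counts, and 34.1 to 118 CPM elsewhere), had neighbours at 0 in COV504. These were the zinc finger genes ZNF274 (5.78 to 27.3 CPM in the other lines) and ZNF329 (2.89 to 9.79 CPM), and AC020915.4 (4.62 to 11.6 CPM), while ZSCAN22 on the far side had 27 counts. In the wider set 4 genes were consecutive on chromosome 14: ATP5S, SAV1, NIN and PYGL.

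That run spanned 50312329 to 50944736. SAV1, a scaffold of the Hippo kinases, was at 0 in COV504 and 19.98 to 48.6 CPM elsewhere. NIN, a centrosome protein, was at 0 and 13.4 to 66.6 CPM elsewhere. PYGL, liver glycogen phosphorylase, was at 0 and 18.8 to 283 CPM elsewhere. Lower-expressed genes between and after them, from MAP4K5 to TRIM9, were at 0 in COV504 as well, some of them also in other lines, while TMX1 after the run had 136 counts. The DNA of the line was not analysed here, so loss of the region and silencing cannot be told apart.

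**Figure D3:**
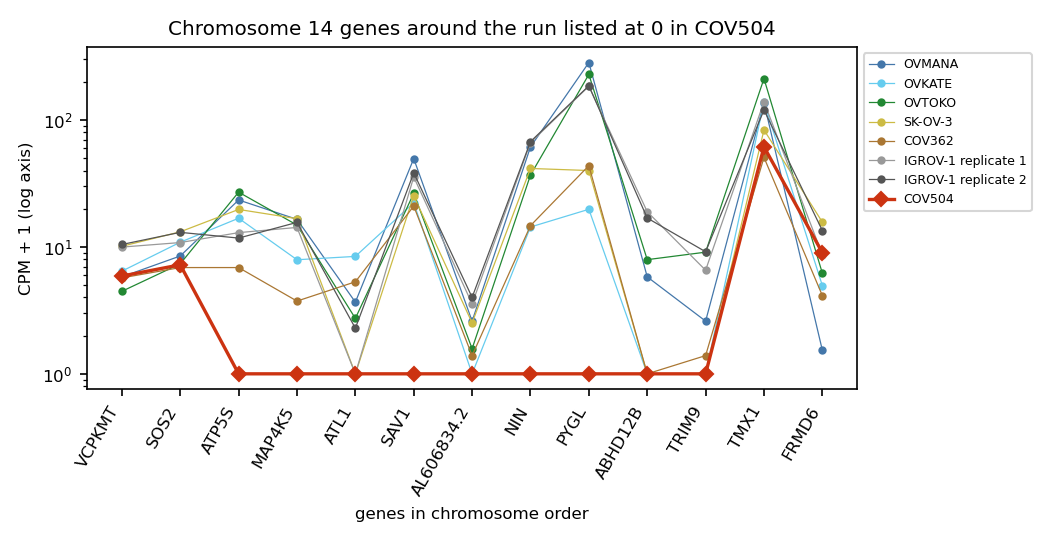
CPM + 1 on a log axis for chromosome 14 genes in their order along the chromosome, 1 line per PromethION library. COV504 (red) lies at 0 CPM from ATP5S to TRIM9 and within or near the other libraries on both sides of the run.

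The interferon-stimulated genes encode antiviral proteins that are switched on through the STAT factors. Of 32 listed, 30 had an identifier of their own and 29 passed the filter: 17 of the 29 were highest in COV504 and 0 were lowest. Over all genes tested COV504 was highest for 11.8% and lowest for 9.66%. The list's median log2 difference was 1.87, beside -0.19 over all genes. None was called by edgeR, and 3 of 29 had an unadjusted p under 0.05. The summed level was 11792 CPM in COV504 and 1419 to 7254 CPM in the other lines, the highest of them COV362.

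IFI6, a mitochondrial inhibitor of apoptosis, had 1089 CPM in COV504, 231 CPM in OVMANA, 228 CPM in COV362, 185 CPM in OVKATE, 64.7 CPM in OVTOKO, 59.8 CPM in SK-OV-3, and 37.2 and 32.6 CPM in the IGROV-1 libraries. IFITM1, a membrane protein that restricts virus entry, had 1578 CPM in COV504, 315 CPM in COV362, 266 CPM in OVMANA, 138 CPM in OVTOKO, 107 CPM in SK-OV-3, 2.47 CPM in OVKATE, and 49.5 and 54.6 CPM in the IGROV-1 libraries. In both genes COV504 lay above all others by more than 4-fold, at 4.71 (interval 4.25 to 5.23) and 5.004 times (interval 4.63 to 5.41) the nearest line. IFITM1 and IFITM3 are close copies that could share reads. PLSCR1, an interferon-induced scramblase that was not in the list and is named for its value, had 640.2 CPM against 30.1 to 87.4 CPM. It had the tightest spread outside COV504 of these 3 genes.

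Other members stood less far out. ISG15, a ubiquitin-like modifier, had 978 CPM in COV504 and 774 CPM in COV362, and IFI27 had 2144 CPM in COV504 against 1269 CPM in OVKATE and 1223 CPM in COV362. OAS3, a sensor of double-stranded RNA, had 161 CPM against 59.5 CPM in COV362 and at most 23.2 CPM in the rest. COV362 stood above COV504 for IFIT1 (319 against 215 CPM), IFIT3 (342 against 98.3 CPM) and OASL (63.5 against 17.8 CPM).

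**Figure D4:**
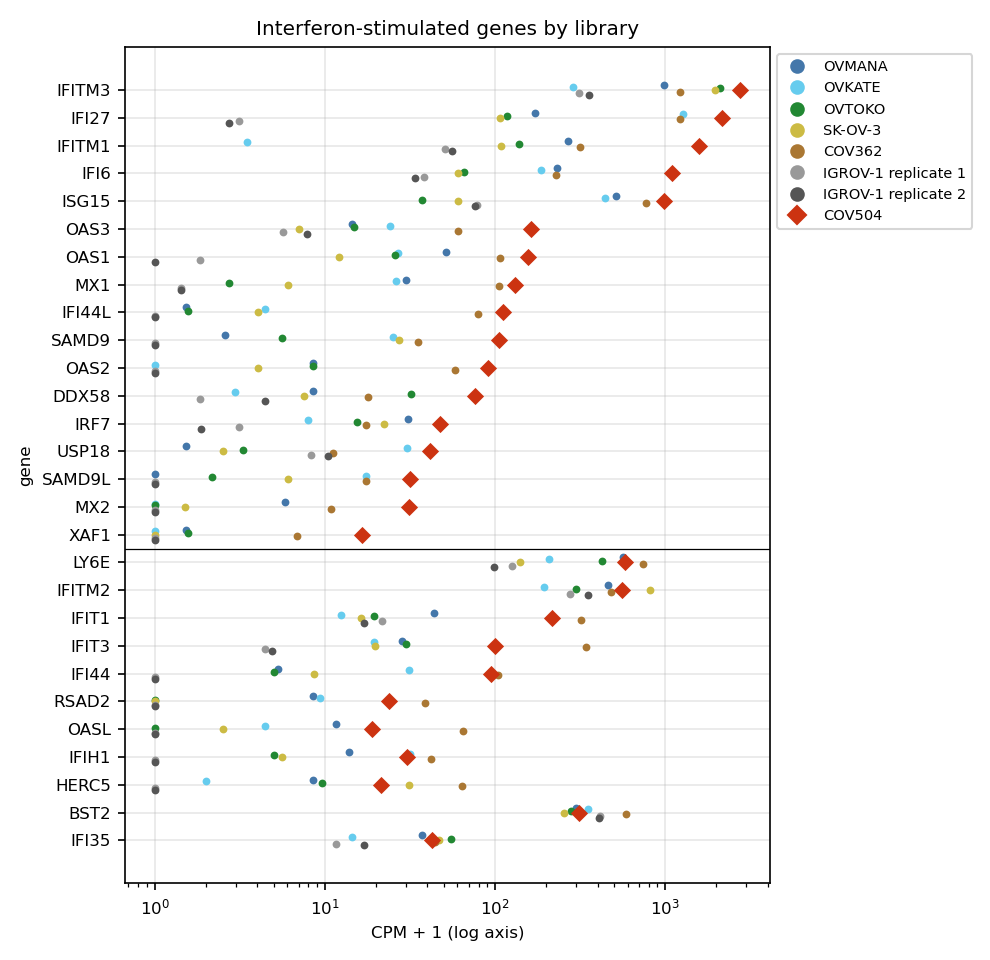
CPM + 1 on a log axis for 28 of the 29 interferon-stimulated genes that passed the filter, with COV504 as red diamonds and the other PromethION libraries as dots. The 17 genes above the line are highest in COV504, and for most of those below it COV362 lies to the right.

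The upstream sequences of 4 of these genes are shown because they carry the letters that interferon-activated factors bind. The windows are the 250 bases before the gene start in RefSeq (GRCh38.p14), 5′ to 3′ on the gene's strand, and capitals mark GAAANNGAAA or, on the other strand, TTTCNNTTTC, where overlapping matches run together. IFI6 lies at chr1:27672193-27672442 (minus strand), IFITM1 at chr11:313790-314039 (plus), ISG15 at chr1:1013247-1013496 (plus) and PLSCR1 at chr3:146544608-146544857 (minus).
IFI6: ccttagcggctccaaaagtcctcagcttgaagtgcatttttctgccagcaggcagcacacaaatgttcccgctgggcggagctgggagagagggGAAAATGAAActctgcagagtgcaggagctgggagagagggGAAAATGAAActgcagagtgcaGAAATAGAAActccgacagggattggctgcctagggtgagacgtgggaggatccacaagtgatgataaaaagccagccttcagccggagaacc
IFITM1: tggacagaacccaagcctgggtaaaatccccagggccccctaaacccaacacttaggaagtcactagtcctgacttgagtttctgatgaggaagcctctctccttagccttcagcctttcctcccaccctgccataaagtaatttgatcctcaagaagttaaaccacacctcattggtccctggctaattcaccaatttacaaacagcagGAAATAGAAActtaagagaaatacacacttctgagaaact
ISG15: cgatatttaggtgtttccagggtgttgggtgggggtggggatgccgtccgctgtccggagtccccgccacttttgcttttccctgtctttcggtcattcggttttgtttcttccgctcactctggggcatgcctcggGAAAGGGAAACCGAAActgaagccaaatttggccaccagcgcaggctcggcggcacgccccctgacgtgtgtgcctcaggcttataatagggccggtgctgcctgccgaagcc
PLSCR1: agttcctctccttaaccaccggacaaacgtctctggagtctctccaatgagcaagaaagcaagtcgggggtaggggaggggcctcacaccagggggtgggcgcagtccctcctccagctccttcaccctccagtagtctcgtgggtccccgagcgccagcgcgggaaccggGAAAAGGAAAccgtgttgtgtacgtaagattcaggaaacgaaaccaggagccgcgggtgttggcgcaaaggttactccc

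IFI6 had 3 matches, ISG15 2 and the others 1 each. Of the 27305 gene symbols in the table, 3.71% had a match in any of their windows. Among the interferon-stimulated genes highest in COV504, 13 of 17 were found in the table and 9 had a match. Among those not highest in COV504, 8 of 12 were found and 7 had one, so the letters did not set apart the genes that were highest in COV504. Of the 49 genes, 39 were found and 4 had a match: PLSCR1, RGS4, IFITM1 and IFI6.

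Genes of antigen presentation by MHC class I were next. Of 18 listed, 16 passed the filter. Of the 16, 8 were highest in COV504 (beside 11.8% over all genes) and 0 lowest (beside 9.66%). The median log2 difference was 0.94, and 0 had an unadjusted p under 0.05. Against the nearest line the interval included 1 for ERAP1 (0.75 to 1.62) and NLRC5 (0.724 to 2.45). B2M, the light chain of the complex, had 7623 CPM in COV504 against 4470 CPM in SK-OV-3 and 553 to 2771 CPM in the others. TAP1, the peptide transporter, had 119 CPM against 15.6 to 68.4 CPM. Of the class II genes 6 of 11 passed the filter, 0 were highest and HLA-DMA was lowest (16.7%, beside 9.66% over all genes).

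For epithelial junctions and keratins, 30 of 32 listed genes passed the filter. Of these, 4 were highest in COV504 (13.3%, beside 11.8% over all genes) and 0 lowest. KRT18, a keratin of simple epithelia, had 4627 CPM in COV504, 857 CPM in OVMANA, 645 CPM in OVKATE, 570 CPM in COV362, 314 CPM in OVTOKO, 309 CPM in SK-OV-3, and 263 and 1041 CPM in the IGROV-1 libraries. KRT18 also had the largest ratio of CPM + 1 between the IGROV-1 libraries, at 3.95, among the 6167 genes with 20 CPM, against 5.40 between COV504 and the nearest line. Its partner KRT8 had 3274 CPM against 5.15 to 856 CPM. The gene bodies overlap on opposite strands, and whether counting used strand is not stated. EPCAM, an epithelial adhesion molecule, had 365 CPM in COV504, between 158 CPM in COV362 and 817 CPM in OVKATE. CDH1, epithelial cadherin, had 59.2 CPM in COV504, 214 CPM in OVMANA, 151 CPM in OVKATE and at most 5.06 CPM in the other libraries.

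Mesenchymal genes were also present. Of 29 listed, 26 passed the filter, with a median log2 difference of 0.52. Among the 26, 6 were highest in COV504 (23.1%, beside 11.8% over all genes) and 0 lowest. COL6A1, a microfibril collagen, had 169.5 CPM against 10.2 to 60.1 CPM, and CDH2, neural cadherin, had 174 CPM against 105 CPM in COV362 and 0 to 92.0 CPM in the others. VIM, the intermediate filament vimentin, had 808 CPM, below 4 lines led by SK-OV-3 at 5964 CPM. COV504 thus held E-cadherin and N-cadherin transcripts together, as OVKATE did with 92.0 CPM of CDH2. CAV1, the coat protein of caveolae, was among the 49 and is named for its value, with 2877 CPM against 547 CPM in SK-OV-3 and 3.87 to 444 CPM elsewhere.

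Markers of other cell types were read from whole lists. Of the leukocyte markers 10 of 11 had an identifier of their own, 7 were at 0 in COV504, PTPRC had 1 count, and the sum was 5.78 CPM against 0 to 16.3 CPM in the other lines. The endothelial markers summed to 70.3 CPM against 0.534 to 29.8 CPM, from CDH5 (24.9 CPM) and ENG (42.3 CPM), with VWF and TEK at 0 and KDR at 4 counts. The mesothelial markers summed to 557 CPM against 8.35 to 696 CPM, and PDPN, a mucin-type glycoprotein, held 363 CPM of it. WT1, LRRN4, ITLN1 and DES were at 0. Of the 8 tested, PDPN, CALB2 and KRT5 were highest in COV504 (37.5%, beside 11.8% over all genes) and 0 were lowest. CALB2 had 8.90 CPM against at most 0.506 CPM, and KRT5 had 82.8 CPM against at most 49.1 CPM. The part of other cells in the results was not tested.

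Lineage genes of the ovary and its tumours were mostly not at the extreme. PAX8, a transcription factor of the Mullerian ducts, had 91.7 CPM in COV504 and 84.1 to 340 CPM in the other lines. Of 18 tested genes of the Mullerian and serous list 2 were highest (SST and L1CAM) and 2 lowest (FOLR1 and CD24). These shares, 11.1% each, stood beside 11.8% and 9.66% over all genes. Against the nearest line the interval included 1 for L1CAM (0.876 to 1.20), FOLR1 (0.340 to 1.29) and CD24 (0.780 to 1.04). WT1, KLK6 and KLK7 had 0 counts in COV504. They had 76.2, 1027 and 728 CPM in OVKATE and at most 0.859 CPM in any other library. FOLR1, the folate receptor, had 8.45 CPM against 12.7 to 2175 CPM. Of the 8 clear cell carcinoma genes tested 0 were highest and 0 lowest, and the sum was 945 CPM against 534 to 21977 CPM.

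Among chemokines and cytokines 20 of 25 listed genes passed the filter. Of these, 5 were highest in COV504 (25.0%, beside 11.8% over all genes) and 0 lowest. CCL2, a monocyte chemoattractant, had 384 CPM in COV504, 34.9 CPM in COV362 and 0 in the 6 other libraries. CXCL8, a neutrophil chemoattractant, had 138 CPM against 35.3 CPM in OVTOKO and 0 to 9.40 CPM in the others. CCL2 was thus detected in 2 lines and CXCL8 in all but IGROV-1. The cytokine IL6 had 6 counts or 2.67 CPM in COV504. It had 91.9 CPM in OVMANA, 67.6 CPM in OVTOKO, 1.57 CPM in COV362 and 0 in the other libraries.

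Of 23 G1 regulators and p53 targets 2 were highest (CDKN1C and CCNE2) and 3 lowest (CDKN1A, BAX and ZMAT3). Over all genes COV504 was highest for 11.8% and lowest for 9.66%. The median log2 difference of the list was -1.36, beside -0.19 over all genes. CDKN1A, the p21 inhibitor, had 11.6 CPM in COV504 against 13.7 CPM in COV362 and 17.3 to 353 CPM in the other lines, at 0.844 times COV362 with an interval that includes 1 (0.488 to 1.44). CDKN2A and CDKN2B were at 0, as given above. Of the S and M phase genes 7 of 29 were highest (24.1%, beside 11.8% over all genes) and 0 lowest. The 7 were led by RRM1, a subunit of ribonucleotide reductase, at 133 CPM against 40.1 to 72.2 CPM.

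Of the signalling genes of the Wnt and TGF-beta list 5 of 25 tested were highest (DKK1, DKK3, BMP4, INHBA and FST) and ID2 was lowest. These counts stood beside 11.8% highest and 9.66% lowest over all genes. BMP4, a bone morphogenetic ligand, had 95.7 CPM against 16.7 and 34.8 CPM in the IGROV-1 libraries and 0 to 8.41 CPM elsewhere. DKK1, a secreted Wnt inhibitor, had 44.5 CPM against 12.1 CPM in COV362 and 0 to 5.06 CPM elsewhere. Of the HOX genes 6 of 24 tested were highest (25.0%, beside 11.8% over all genes) and 0 lowest. Among the 6 was HOXA11, with 14 counts against at most 1 count in a line. In the retinoid list 2 of 16 were highest (12.5%, beside 11.8% over all genes) and RDH10 was lowest (6.25%, beside 9.66%). RDH10 had 19.6 CPM against 24.3 to 487 CPM in the other lines, and the interval against SK-OV-3 included 1 (0.523 to 1.24). RARB, a retinoic acid receptor, had 20.02 CPM against at most 2.74 CPM. ALDH1A3, which makes retinoic acid, had 69.4 CPM against at most 29.8 CPM. S100A4, a calcium-binding protein linked to motility, was the lowest member of 10 tested S100 genes, at 39.2 CPM against 106 CPM in OVTOKO and 719 to 4011 CPM in the other libraries.

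The remaining lists are given by their counts. Sterol synthesis had 5 of 18 highest and 0 lowest, glycolysis 2 and 1 of 16, the NRF2 response 1 and 2 of 17, DNA repair 1 and 2 of 20, the ERBB, RAS and PI3K list 2 and 2 of 25, and hypoxia 0 and 1 of 18. Metallothioneins had 1 and 0 of 7, imprinted genes 3 and 0 of 12, complement 1 and 0 of 10, proteases and their inhibitors 2 and 0 of 21, and epithelial splicing targets 0 and 0 of 9. These shares stood beside 11.8% and 9.66% over all genes.

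Across the 12738 genes tested the Spearman correlation of COV504 was 0.854 with COV362, 0.804 with SK-OV-3, 0.778 with OVKATE, 0.762 with OVTOKO, 0.758 with OVMANA and 0.744 with IGROV-1. The pair of COV504 and COV362 had the highest value of the 21 pairs of lines. The points are genes, which share libraries and depth and are not independent.

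Transcript use within genes was compared next. The edgeR usage test called 2 of 1514 genes (0.132%), among them SNU13 (adjusted p = 0.0127). By share, 7 of 2370 genes with 50 counts in every library (0.295%) had a transcript at least 20 percentage points outside all 7 other libraries. The same count was 7 in OVMANA and OVTOKO, 10 in SK-OV-3, 13 in COV362 and 15 in OVKATE. Without OVKATE or SK-OV-3 the 7 became 12. SNU13 stayed called without any one line (adjusted p up to 0.0464), while the count of 2 became 1 without OVKATE, OVTOKO or COV362.

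KIAA1522 on chromosome 1 has 3 first exons that join the same second exon. The transcript that starts at 32754021, ENST00000373481, took 77.5% in COV504 (interval 72.2% to 82.1% of 271 counts) and 32.4% to 39.3% in the other libraries. The other 2 took 9.51% and 12.98% in COV504 and 29.4% to 35.3% elsewhere. The 3 junctions are shown because they tell the transcripts apart, with the last 15 bases of the first exon in capitals and the first 15 of the shared exon at 32767787 in lower case (GRCh38, plus strand).
ENST00000373481: CGAAGCGGCCGGCAGgctctgccaaggctg
ENST00000373480: TGTTTAAGAAGAAGGgctctgccaaggctg
ENST00000401073: AGGGCAAAGGCCGAGgctctgccaaggctg

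In the 7 other libraries the 3 transcripts had nearly equal shares. How the quantification divided reads that fit several transcripts is not stated, so these shares, and the contrast with COV504, may not be those of the RNA. The edgeR usage test did not call the gene (adjusted p = 1).

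SNU13, a protein of the spliceosome and of small nucleolar particles on chromosome 22, had 99.2% of its counts on ENST00000355257 in COV504 (interval 98.3% to 99.7% of 689 counts). The other libraries had 47.9% to 78.2% on it. ENST00000401959 and ENST00000215956 took 0.247% and 0.522% in COV504 and 11.1% to 26.3% and 10.7% to 25.8% elsewhere. ENST00000355257 and ENST00000401959 start close together, at 41688909 and 41688881 on the minus strand, and ENST00000215956 starts at 41682622. COV504 counts thus lay almost entirely on 1 transcript, and those of each other library on all 3. In each other library those 2 transcripts had similar shares, such as 26.3% and 25.8% in OVKATE, so the limit on divided reads given for KIAA1522 holds here too.

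**Figure D5:**
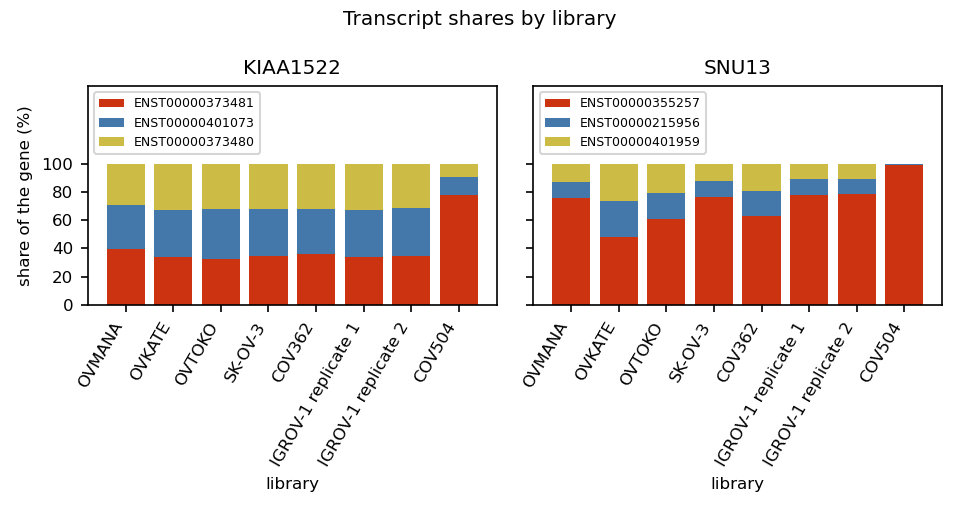
Share of each gene's counts, in percent, on the 3 leading transcripts of KIAA1522 and of SNU13, as stacked bars for the 8 PromethION libraries. The red transcript takes 77.5% and 99.2% in COV504, more than in any other library.

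AHNAK, a very large scaffold protein, had 32.3% of its counts on the short ENST00000257247 in COV504 (415 counts in all) and 0% to 12.4% elsewhere, and 65.1% on the 18787-base ENST00000378024 against 86.7% to 100%. Transcripts over 5000 bases took 10.5% of all counts in COV504 and 9.14% to 12.2% in the other libraries. CFLAR, SRP54 and CBS had fewer counts. CFLAR, an inhibitor of caspase-8, had 62.2% on the short ENST00000341222 (67 counts) against 10.2% to 39.6%. SRP54, of the signal recognition particle, had 37.9% on ENST00000216774 (94 counts) against 3.29% to 16.8%, and CBS, cystathionine beta-synthase, had 64.0% on ENST00000398165 (71 counts) against 85.8% to 97.9%. FAM49B was just outside at 19.2 points, with 11.4% on ENST00000519110 against 30.5% to 42.6%. These 5 genes were not called by the usage test.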

How the data were processed

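Per the labels' protocols, RNA was purified with a column kit and libraries were made with a ligation kit, and the molecule is given as total RNA. Per the submitters' processing notes, minimap2 2.24-r1122 and GRCh38 were used; no source at hand names the quantification tool or strand setting. The authors quantified reads per transcript and deposited them as a counts column, per the file headers, whose fractional values are estimated counts, for 99493 transcripts and 57110 gene identifiers, 722 of which join several genes. The 2 MinION libraries were not used here. Counts were summed per gene, rounded and divided by the library total (CPM). edgeR 4.0.16 (R 4.3.3; TMM, default filter, quasi-likelihood, two-sided, Benjamini-Hochberg adjusted p under 0.05) compared COV504 with the 6 other lines, IGROV-1 as the sum of its 2 libraries; the lone COV504 library is assumed to vary like the lines, and p-values measure the spread between lines. DESeq2 1.42.0 was an alternative. Each standard error is the log2 difference over the root of its F value. Usage was tested with diffSpliceDGE (Simes p per gene; 50 counts in every line, transcripts of 5% or more). Named genes are the 15 highest and all lowest single genes by ratio of CPM + 1 to the nearest line (20 CPM minimum), RARRES2, list members at the extreme or defining their list, the 8 genes with the farthest transcript shares, and neighbouring runs. The members, the 30 gene lists and the rule were chosen with earlier results of these data known; the wider set of genes near 0, the endoplasmic reticulum list, the motif, PLSCR1 and CAV1 were chosen after their values were seen. Positions of 97964 transcripts were the same in GENCODE 29, the source of lengths and junctions. The tests were tested on simulated data with 200 changed genes; the usage test recovered 72.3% of genes with swapped leading transcripts (2207 genes in the step). A few genes are counted in the totals but not reported here. Alternatives covered scaling, filters, minimum levels and leaving out each library.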

Additional observations from a re-analysis of the deposited data

How the results depend on the processing

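No paired analysis was possible because COV504 has 1 library and shares no replicate pair with the other lines. Every other edgeR setting over lines, left-out libraries included, gave 0 genes higher and 0 lower. DESeq2 gave 8 higher and 33 lower, and the spread of the 2 IGROV-1 libraries gave 2245 higher and 779 lower. The latter fit also differed in taking the mean of the 6 lines on the log scale. Genes at least 4-fold above every other line numbered 32 at a minimum of 50 CPM, and 49 to 91 with a library left out, 91 without COV362. Genes at least 4-fold below numbered 14 at a minimum of 10 CPM and 2 at 50 CPM, and 6 to 10 with a library left out, 10 without OVTOKO. Genes with a usage call numbered 1 to 3 with a library left out, 1 without OVKATE, OVTOKO or COV362. Genes with a share 20 points outside numbered 27 at 20 gene counts, 4 at 100 gene counts, 36 at a margin of 10 points and 2 at 30 points, and 7 to 12 with a library left out, 12 without OVKATE or SK-OV-3. The 25 genes near 0 became 29 to 34 with a line left out. The 163 named or listed genes kept their side of the threshold in 2275 refits. In 170 more, all with DESeq2 or the IGROV-1 spread, the gene passed it. At these depths 1.33 CPM in COV504 was 3 counts, and a gene under that level could be listed at 0.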
